A study of Mus musculus with 6 samples.

Results

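Retinoic acid is made, cleared, bound and read by a small set of genes, and 10 of them were followed here in sorted cells of the embryonic mouse trachea. They encode the retinaldehyde dehydrogenases Aldh1a1, Aldh1a2 and Aldh1a3, the retinaldehyde reductase Dhrs3, the clearing enzyme Cyp26b1, the binding proteins Crabp1 and Crabp2, and the receptors Rara, Rarb and Rarg. They were chosen by name for their roles in the pathway, as 10 of the 23478 genes in the deposited count table. The choice was made with earlier results of these data known. RNA was sequenced from tracheas at embryonic day 13.5 in 3 libraries of muscle cells and 3 of epithelial cells. Both populations came from embryos of the genotype Bmp4 f/f; gamma SMA eGFP, which carry floxed Bmp4 alleles and a green fluorescent reporter of gamma smooth muscle actin. No Cre recombinase is named, and the libraries are titled controls. Muscle cells were sorted by GFP and epithelial cells by an APC-labelled antibody to Epcam, so the comparison is of 2 sort gates and leaves out tracheal cells with neither label. Whether a library came from 1 embryo or from a pool is not stated, so p-values measure only the spread between these libraries, which may be technical.

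Retinol, the form of vitamin A that cells take up, is oxidised to retinaldehyde and then, by the retinaldehyde dehydrogenases, to retinoic acid. Dhrs3 turns retinaldehyde back into retinol, and the Cyp26 enzymes oxidise retinoic acid for removal. Inside the cell Crabp1 and Crabp2 bind retinoic acid, and its receptors, paired with retinoid X receptors, act on DNA at repeated half-sites. In the embryonic foregut, retinoic acid made in the mesoderm is known to be needed for formation of the lung bud.

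Library totals ran from 11847432 to 54848820 counts. Actg2, the gene behind the GFP sort, had 403 to 2790 counts per 1000000 (CPM) in muscle and 1.6 to 2.47 in epithelium, and Epcam had 0.646 to 2.2 and 541 to 710. All 10 smooth muscle markers were called higher in muscle and all 10 epithelial markers higher in epithelium. Muscle replicate 2 stood apart, with a summed smooth muscle marker level of 4140 CPM against 16900 and 17800 in the other muscle libraries. Counts in 1456 olfactory and vomeronasal receptor genes, which serve here as a measure of background, averaged 0.606 CPM per gene in muscle replicate 2. The mean was 1.25 for epithelium replicate 2, 0.437 for epithelium replicate 3 and 0.00498 to 0.026 for the other 3 libraries. The file headers hold numbers read here as dates, an earlier one for both replicates 2 and a later one for the other 4 libraries. Results are therefore also given within each date: a fit of 2 libraries per group for the later date, and a bare ratio of 1 library to 1 for the earlier.

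All 10 genes passed the filter on low counts. 3 were higher in muscle, Aldh1a2, Dhrs3 and Crabp1, and 1 was higher in epithelium, Aldh1a1. The other 6 did not pass an adjusted p of 0.05 in the quasi-likelihood test of edgeR, which was adjusted over all 19375 genes tested. In that test 10.7% of all genes tested were called, 6.58% higher in muscle and 4.11% higher in epithelium. Among the 12738 genes whose log2 CPM averaged 2 or more, which include all 10, the called share was 16.2%, 10% toward muscle and 6.22% toward epithelium. The 4 calls among 10 genes are set beside these shares as a description, with no test of the list. The list was chosen with earlier results of these data known. 6 of the 10 had an unadjusted p under 0.05, as did 21.7% of all genes tested. The libraries of muscle and epithelium did not overlap in 5 of the 10 genes, 4 of them higher in muscle and 1 in epithelium. Over all genes tested 26.9% did not overlap, 16.4% with muscle higher and 10.5% with epithelium higher. The median log2 fold change, muscle over epithelium, was 0.91 over the 10 genes and -0.10 over all genes tested. Because RNA was measured in bulk, fewer cells carrying a transcript and less of it per cell cannot be told apart.

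**Figure D1:**
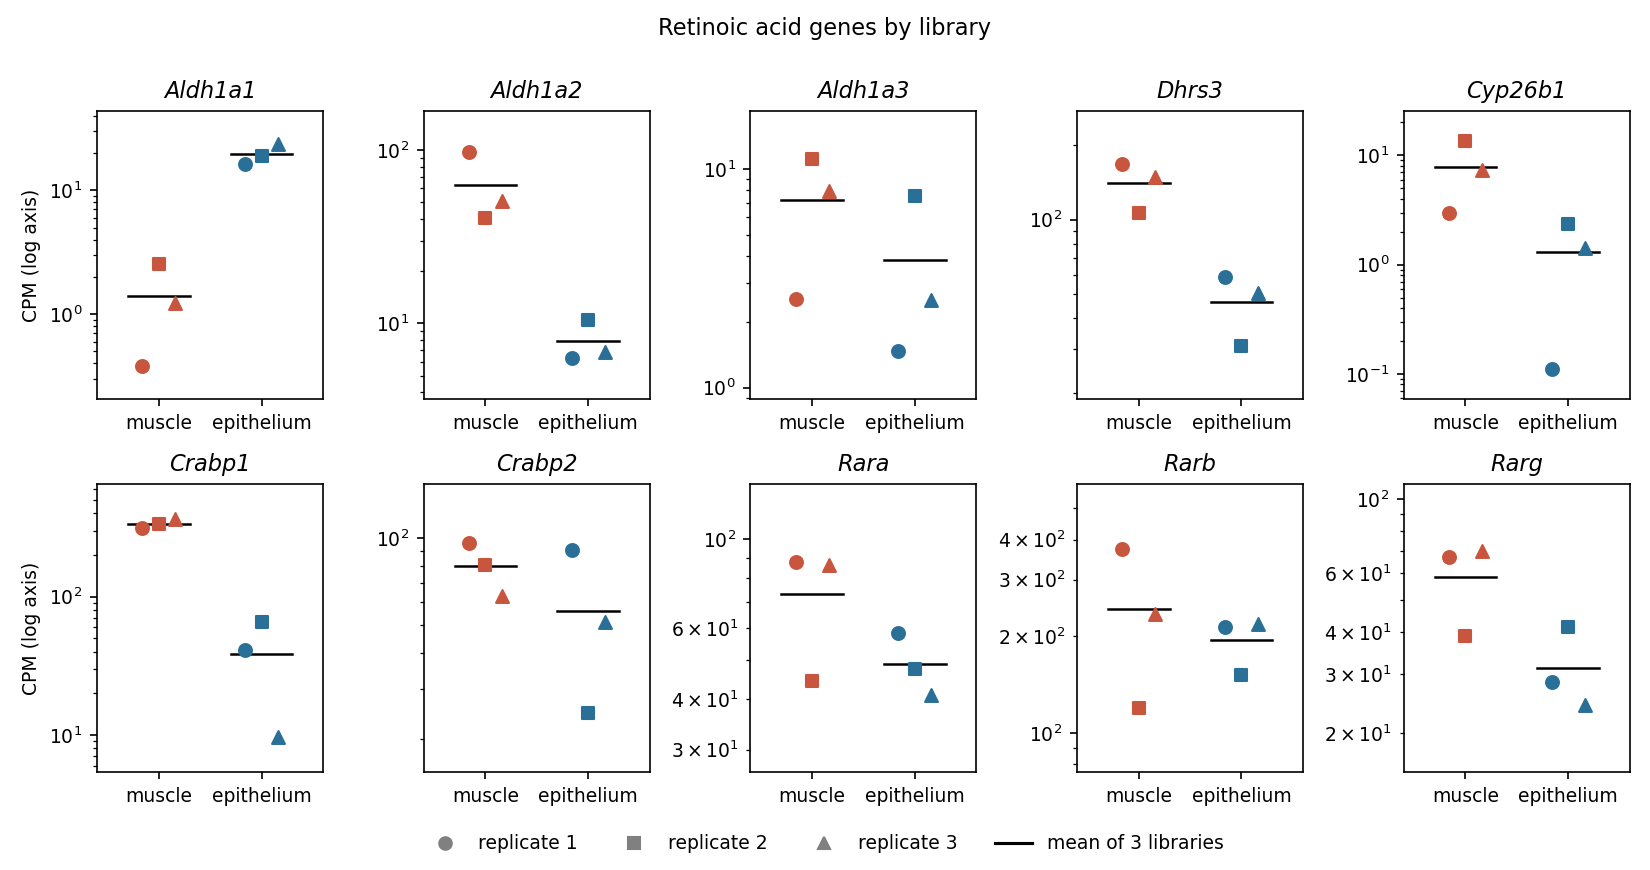
Level of each of the 10 genes in each library, in CPM on a log axis, with muscle in red, epithelium in blue, a marker shape for each replicate number and a bar at the mean of 3 libraries. Muscle and epithelium do not overlap for Aldh1a1, Aldh1a2, Dhrs3, Cyp26b1 and Crabp1, and overlap for the other 5.

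The enzymes that make retinoic acid were divided between the populations: Aldh1a2 was higher in muscle and Aldh1a1 in epithelium. Aldh1a2, the main retinaldehyde dehydrogenase of embryonic mesoderm (chr9:71215789-71296243, GRCm38, plus strand, 14 exons in its principal transcript), had 97.5, 40.6 and 50.9 CPM in muscle replicates 1 to 3. In epithelium replicates 1 to 3 it had 6.3, 10.5 and 6.84 CPM. Every muscle library was above every epithelial library, and the lowest was muscle replicate 2. The means were 63.0 ± 30.3 and 7.88 ± 2.28 CPM (SD, n = 3 each), 8-fold apart, and the log2 fold change was 3.01 ± 0.39 (SE, edgeR adjusted p = 0.00175). The gene passed in all 15 alternative fits, with an edgeR, limma or DESeq2 adjusted p of at most 0.014. Within the later date the log2 fold change was 3.42 ± 0.37 (edgeR adjusted p = 0.00326), and the ratio of the earlier date was 1.95 on the log2 scale.

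In epithelium Aldh1a2 had more counts than any of the 1456 receptor genes in every library, with no scaling by gene length. Its epithelial level was 10%, 16.7% and 10.8% of the muscle mean in replicates 1 to 3. Over the 10 smooth muscle markers the median of the same percentage was 0.932%, 1.99% and 0.723%. The markers differed widely around this median. Smtn, the highest of them in epithelium, had 80.5, 50.8 and 80.4 CPM there and 606, 193 and 608 in muscle. Actg2 had 1.6, 2.47 and 2.44 CPM in epithelium and 2440, 403 and 2790 in muscle. Lmod1, the lowest of the markers in muscle with 51, 19.1 and 66.1 CPM, had 3.25, 3.74 and 3.04 in epithelium. The part of carried-over muscle cells in the epithelial level of Aldh1a2 was not tested. Mesothelium is another known site of Aldh1a2. Of 8 mesothelial markers 7 were in the table, and their summed level was 3.88 to 19.9 CPM in muscle and 318 to 503 in epithelium, almost all of the latter from the keratin gene Krt7. Without Krt7 it was 2.58 to 19.1 in muscle and 16.1 to 21.9 in epithelium. The mesothelial gene Wt1 had 1.67, 9.44 and 1.95 CPM in muscle and 0.242, 4.14 and 4.62 in epithelium. Wt1 was thus highest where Aldh1a2 was lowest among the muscle libraries, in replicate 2. In epithelium the mesothelial markers Msln, Upk3b, Lrrn4 and Bnc1 had the order of Aldh1a2, highest in replicate 2 and lowest in replicate 1. Msln had 0.781, 6.48 and 3.15 CPM there, and the background counts given above had the same order. Wt1, Upk1b and Krt7 had another order in epithelium. The part of mesothelial cells in the level of Aldh1a2 was not tested.

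Aldh1a1 (chr19:20492715-20643465, plus strand, 16 exons) oxidises retinaldehyde and other aldehydes and is known as an enzyme of many epithelia. It had 16.3, 18.8 and 23.7 CPM in epithelium and 0.38, 2.55 and 1.24 CPM in muscle. All epithelial libraries lay above all muscle libraries, and the highest muscle value was again in replicate 2. Means were 19.6 ± 3.75 CPM in epithelium and 1.39 ± 1.09 in muscle (SD, n = 3 each), 14.1-fold apart. The log2 fold change was -3.83 ± 0.66 (SE, edgeR adjusted p = 0.00625), and it passed in all 15 alternative fits with an adjusted p of at most 0.0384 (edgeR, limma or DESeq2). Without muscle replicate 2 it was -4.56 (edgeR adjusted p = 0.00136). Within the later date it was -4.67 ± 0.67 (edgeR adjusted p = 0.00841), against -2.89 for the single ratio of the earlier date. In muscle the counts behind these values were 10, 51 and 49. Of the background receptor genes 1.3%, 2.47% and 0.206% had at least as many, with no scaling by gene length. Epithelial markers in the same libraries stood at a median of 0.235%, 0.738% and 0.579% of their epithelial mean, and Aldh1a1 at 1.94%, 13% and 6.31%. The markers have higher epithelial levels than Aldh1a1, so an equal background is a smaller percentage for them. Esrp1, the lowest of them in epithelium with 112, 83.1 and 91.6 CPM, had 0.152, 2 and 0.961 in muscle. The part of carried-over cells or background in the muscle level of Aldh1a1 was not tested.

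Aldh1a1 has a close relative next to it on chromosome 19, Aldh1a7, and the pair bears on how far each value can be assigned to 1 gene. Their coding sequences, 1503 bases each, are identical at 1377 positions (91.6%). Of all stretches of 50 bases in the Aldh1a1 transcript, 6.54% also occur in Aldh1a7, and of those of 100 bases 0.04%. Aldh1a1 shares no stretch of 50 bases with Aldh1a2 or Aldh1a3, which match it at 66.4% and 66.0% of aligned coding positions. The stretch of coding bases 601 to 690, counted from the start codon, is shown for both genes as an example. It was taken at a fixed position, and how hard its reads are to assign was not measured. It differs at 3 of 90 positions, in capitals.

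Aldh1a1: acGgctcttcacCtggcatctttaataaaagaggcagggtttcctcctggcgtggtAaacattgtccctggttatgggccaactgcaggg

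Aldh1a7: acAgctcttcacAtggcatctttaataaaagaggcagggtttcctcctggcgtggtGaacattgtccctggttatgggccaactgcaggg

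Aldh1a7 had 31.7, 20.2 and 37.5 CPM in epithelium and 0.19, 4.64 and 1.09 in muscle, so its groups were separated in the same direction. Its log2 fold change of -3.94 ± 0.91 (SE, edgeR adjusted p = 0.0254) was less secure than that of Aldh1a1. It did not pass in 8 of the 15 alternative fits, with an adjusted p of up to 0.131 (edgeR) when muscle replicate 3 was left out. The call was also lost without each of the 3 epithelial libraries in turn, and without muscle replicate 2 the log2 fold change was -5.47. How the authors' counting treated reads that fit both genes is not given in the sources used here.

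Aldh1a3 (chr7:66390890-66427517, minus strand, 13 exons), the third enzyme of this step, was low and did not separate the populations. It had 2.55, 11.1 and 7.96 CPM in muscle and 1.47, 7.55 and 2.52 in epithelium. The lowest muscle value lay inside the range of the epithelium, and the highest value in each group was in replicate 2. A log2 fold change of 0.91 ± 0.84 (SE, edgeR adjusted p = 0.722) was fitted, and no alternative fit passed.

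Per kilobase of principal transcript, the share of each gene in the summed level of the 3 enzymes shows the division within a library. In muscle Aldh1a2 held 98%, 80.6% and 88.8% of the sum, and in epithelium 27.5%, 31.3% and 21.9%. Aldh1a1 held 0.367%, 4.85% and 2.07% in muscle and 68.3%, 53.9% and 72.8% in epithelium. Aldh1a3 held 1.68% to 14.5% in muscle and 4.21% to 14.8% in epithelium. The choice of length moves the epithelial shares: with all annotated exons of a gene in place of its principal transcript, Aldh1a1 held 51.6%, 37.8% and 57.4% there and Aldh1a2 43.4%, 45.9% and 36.1%. In epithelium replicate 2 the order of Aldh1a1 and Aldh1a2 was then reversed, whereas in muscle Aldh1a2 still held 86.0% to 98.6%.

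**Figure D2:**
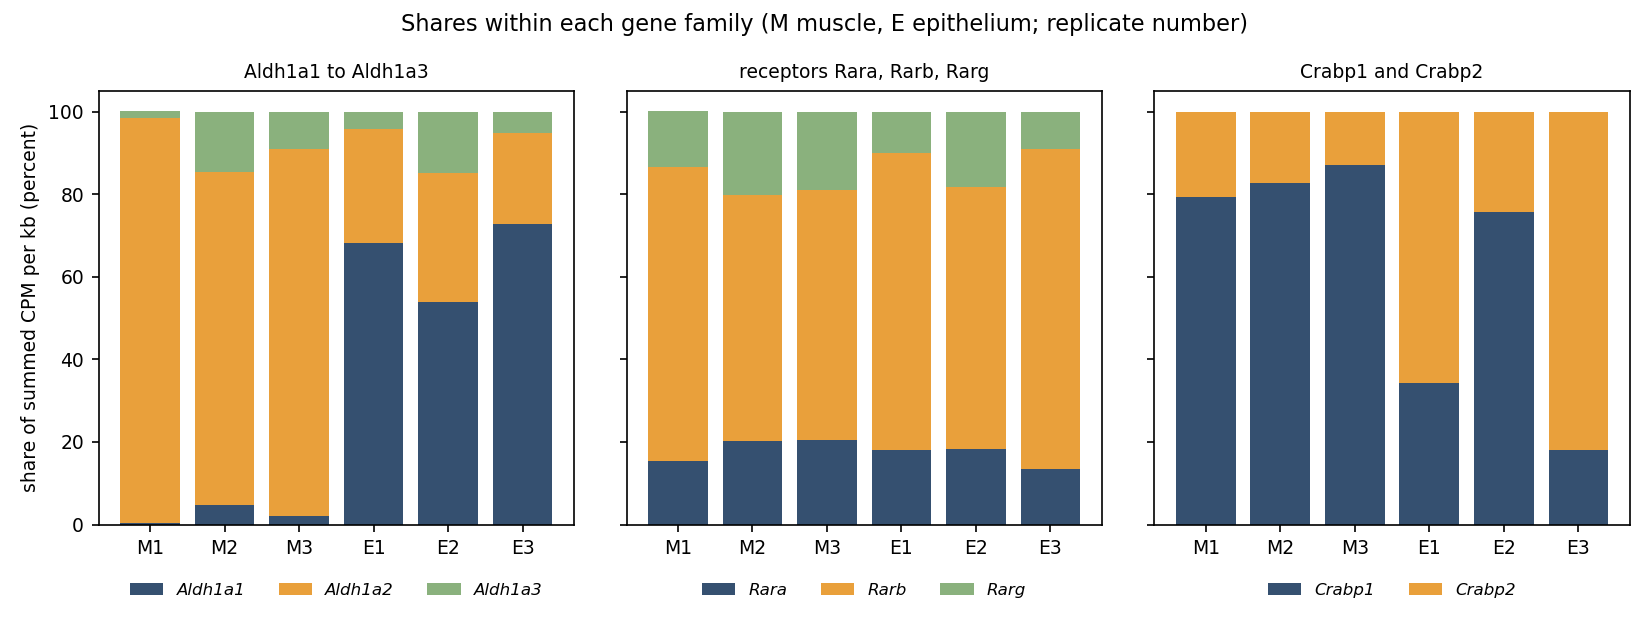
Share of each gene, in percent, in the summed CPM per kb of principal transcript of its family, for muscle (M) and epithelium (E) replicates 1 to 3. Aldh1a2 holds 80.6% to 98% of the aldehyde dehydrogenase sum in muscle and 21.9% to 31.3% in epithelium. Rarb is the largest receptor share in all 6 libraries, though uncertain because its exons overlap those of Top2b on the other strand. Crabp1 holds 18.0% to 75.6% of its pair in epithelium.

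Both genes that lower retinoic acid had higher values in muscle, and 1 of them passed the test. Dhrs3 (chr4:144892827-144928209, plus strand, 6 exons) encodes the reductase that draws retinaldehyde back to retinol. It had 168, 106 and 148 CPM in muscle and 58.6, 30.9 and 50.5 in epithelium. Their ranges were apart, and replicate 2 was the lowest of each. Means were 141 ± 31.5 and 46.7 ± 14.2 CPM (SD, n = 3 each), 3.01-fold apart, and the log2 fold change was 1.59 ± 0.31 (SE, edgeR adjusted p = 0.0111). The call was lost without epithelium replicate 3 (1.51, edgeR adjusted p = 0.0545) and held in the other 14 alternative fits. Within the later date the log2 fold change was 1.46 ± 0.17 (edgeR adjusted p = 0.00399), and the ratio of the earlier date was 1.78.

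Cyp26b1 (chr6:84571414-84593908, minus strand, 6 exons), a cytochrome P450 that clears retinoic acid, had 3, 13.4 and 7.28 CPM in muscle and 0.112, 2.34 and 1.43 in epithelium. Every muscle library was above every epithelial library, but the spread inside each group was wide. Its unadjusted p was under 0.05, and the log2 fold change of 2.62 ± 1.13 (SE) did not pass (edgeR adjusted p = 0.216). With the background counts as a covariate it was 3.77 (edgeR adjusted p = 0.00367), and it passed in none of the other 14 alternative fits, where the adjusted p reached 0.467 (edgeR, limma or DESeq2). Without epithelium replicate 2 the log2 fold change was 3.44, and without muscle replicate 2 it was 2.02. The later date gave 2.68 ± 1.36 (edgeR adjusted p = 0.247) and the earlier a ratio of 2.52. Its epithelial values rest on 6, 35 and 38 counts. In the same libraries 1.17%, 12.4% and 5.15% of the background receptor genes had at least as many. These counts were not scaled by gene length, so they do not settle whether Cyp26b1 lay above background in epithelium. Per kilobase of its principal transcript of 4495 bases, Cyp26b1 had 0.0248, 0.52 and 0.318 CPM there.

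The binding proteins differed from each other: Crabp1 was higher in muscle, and Crabp2 did not pass. Crabp1 (chr9:54764748-54773110, plus strand, 4 exons), a cytosolic protein known to bind retinoic acid and to hold it away from the receptors, had 315, 333 and 363 CPM in muscle and 41, 65.8 and 9.69 in epithelium. The muscle libraries lay within 1.15-fold of one another, while the epithelial libraries spanned 6.79-fold, with the low value in replicate 3. Means were 337 ± 24.5 and 38.8 ± 28.1 CPM (SD, n = 3 each), 8.68-fold apart. The log2 fold change was 3.12 ± 0.58 (SE, edgeR adjusted p = 0.00955). With the background counts as a covariate it was 3.14 and did not pass (edgeR adjusted p = 0.0821), and it passed in the other 14 alternative fits. The later date gave 3.66 ± 0.66 (edgeR adjusted p = 0.0174) and the earlier a ratio of 2.34.

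Some cartilage genes had the same order over the epithelial libraries as Crabp1, and most did not. The summed level of 9 cartilage markers was 421, 490 and 241 CPM in epithelium replicates 1 to 3, and 662 to 1140 in muscle. Among them Col9a1, a cartilage collagen gene, had 9, 39.4 and 6.84 CPM in epithelium and 163 to 185 in muscle, and Sox9, which cartilage progenitors and some epithelial cells express, had 100, 187 and 55.5 and 307 to 673. For Crabp1, for the sum and for 3 of the 9 markers (Sox9, Col9a1 and Lect1), replicate 2 was the highest and replicate 3 the lowest epithelial library. The other 6 had another order, among them Col2a1, the main collagen gene of cartilage, with 294, 223 and 154 CPM, and Acan, its proteoglycan gene, with 0, 9.09 and 1.61. Neural crest derivatives are another known source of Crabp1. 10 neural and glial markers summed to 36.3, 83.8 and 46.6 CPM in epithelium and 35.4 to 71.9 in muscle. Among them Tubb3, with 5.76, 15 and 3.46 CPM, and Stmn2, with 4.76, 8.15 and 1.8, had the order of Crabp1 over the epithelial libraries. The others of the list had another order, Sox10 with 2.6, 10.4 and 3.12 CPM. The early neural crest gene Foxd3 was at or under 0.526 CPM in all 6 libraries. The part of these cells in the level of Crabp1 was not tested.

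Crabp2 (chr3:87948666-87953376, plus strand, 4 exons), which hands retinoic acid to its receptors, had 96.2, 80.7 and 63.1 CPM in muscle and 91.4, 24.7 and 51.2 in epithelium. The groups overlapped, and the epithelial libraries spanned 3.71-fold. The log2 fold change was 0.52 ± 0.42 (SE, edgeR adjusted p = 0.657), with no alternative fit past the threshold. The later date gave 0.09 ± 0.34 (edgeR adjusted p = 0.896) and the earlier a ratio of 1.71, a difference between the dates that was not tested. Per kilobase, Crabp1 held 79.2%, 82.7% and 87.0% of the summed level of the pair in muscle. In epithelium it held 34.3%, 75.6% and 18.0%, so that Crabp2 was the larger in replicates 1 and 3 and Crabp1 in replicate 2. The shares with all exons as the length were 84.4% to 90.5% in muscle and 23.8% to 81.5% in epithelium.

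All 3 receptor genes were present in every library, and none passed the test between populations. Rarb (chr14:16430839-16819156, minus strand, 8 exons), a receptor whose own transcription is a classic readout of retinoic acid, had 375, 120 and 234 CPM in muscle and 213, 152 and 218 in epithelium. Muscle replicates 1 and 3 lay above all epithelial libraries and muscle replicate 2 below them. Its log2 fold change was 0.32 ± 0.39 (SE, edgeR adjusted p = 0.831), and without muscle replicate 1 the sign turned (-0.12). Of the 3108 bases of its principal transcript 1793 (57.7%) lie opposite exons of Top2b, a topoisomerase gene on the other strand. These libraries keep no strand in standard use, so reads from the overlap cannot be assigned and the level of Rarb is uncertain. Top2b had 47.2, 45.8 and 67 CPM in muscle and 95.2, 81.7 and 55 in epithelium (log2 fold change -0.53 ± 0.28, edgeR adjusted p = 0.342). None of the other 9 genes shares exon bases with another gene of the table.

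Rara (chr11:98927818-98974942, plus strand, 10 exons), the most broadly expressed of the receptors in embryos, had 88, 44.5 and 86.5 CPM in muscle and 58.3, 47.5 and 41.1 in epithelium. Muscle over epithelium gave a log2 fold change of 0.58 ± 0.31 (SE, edgeR adjusted p = 0.348), and the smallest adjusted p in any alternative fit was 0.0534. Rarg (chr15:102234938-102257517, minus strand, 10 exons), known from skin and cartilage, had 66.9, 39 and 70.1 CPM in muscle and 28.5, 41.5 and 24.2 in epithelium. For Rarg that value was 0.90 ± 0.31 (SE, edgeR adjusted p = 0.113), with an unadjusted p under 0.05. In both genes muscle replicates 1 and 3 were above all epithelial libraries, while muscle replicate 2 fell among them. Without muscle replicate 2 Rarg passed (1.14, edgeR adjusted p = 0.0279), and so it did within the later date (1.30 ± 0.19, edgeR adjusted p = 0.00924).

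The receptors were the genes whose direction differed between the header dates. Within the later date the log2 fold changes were 0.74 ± 0.22 for Rara (edgeR adjusted p = 0.0742), 0.42 ± 0.24 for Rarb (edgeR adjusted p = 0.296) and, as given, 1.30 for Rarg. The ratios of the earlier date were -0.09, -0.34 and -0.09 in the same order, so all 3 changed sign between the dates. The earlier date has 1 library per group, and this difference was not tested. For the other 7 genes the sign was the same in both dates, Aldh1a3 with 1.33 ± 0.85 (edgeR adjusted p = 0.356) in the later and 0.56 in the earlier.

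**Figure D3:**
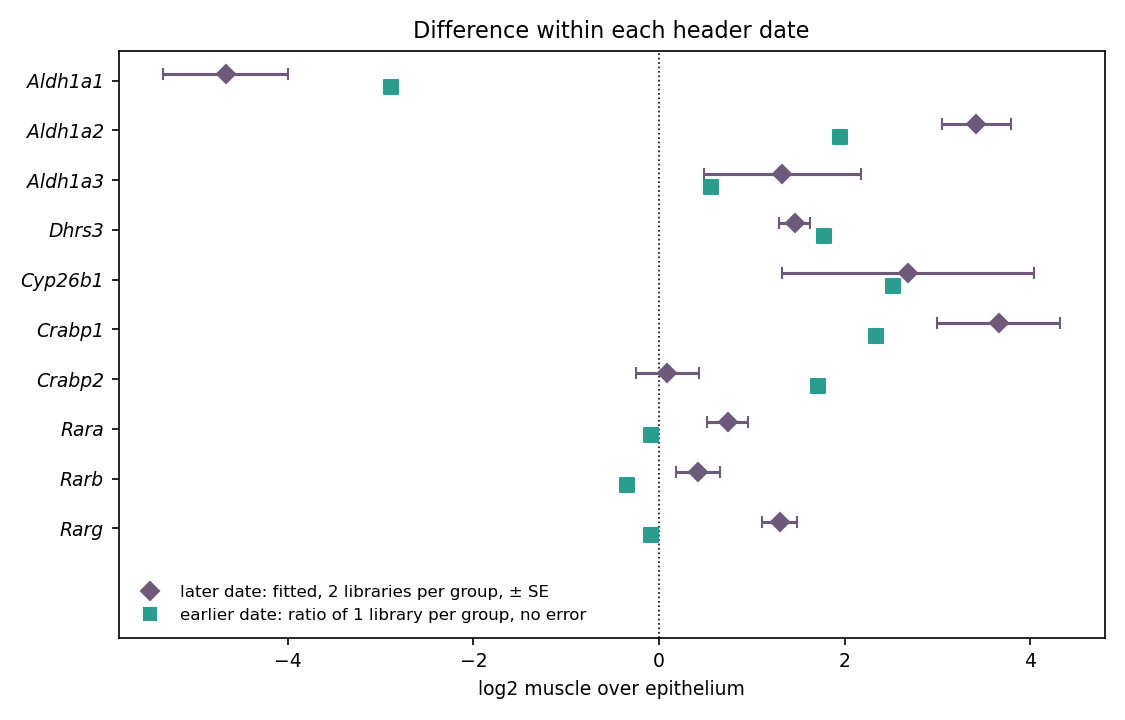
Log2 ratio of muscle to epithelium within the later header date (diamonds, fit of 2 libraries per group with its SE) and within the earlier (squares, 1 library per group, no error). The 4 called genes lie on the same side of 0 in both, and Rara, Rarb and Rarg lie above 0 in the later date and below it in the earlier.

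Muscle replicate 2, the muscle library of the earlier date, recurs in these values. Of the 3 muscle libraries it had the lowest Aldh1a2, Dhrs3, Rara, Rarb and Rarg and the highest Aldh1a1, Aldh1a3 and Cyp26b1. It also had the lowest smooth muscle marker sum and the highest background of the muscle libraries, as given above. The part of either in these levels was not tested. Without it the 4 calls held and Rarg was added.

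**Figure D4:**
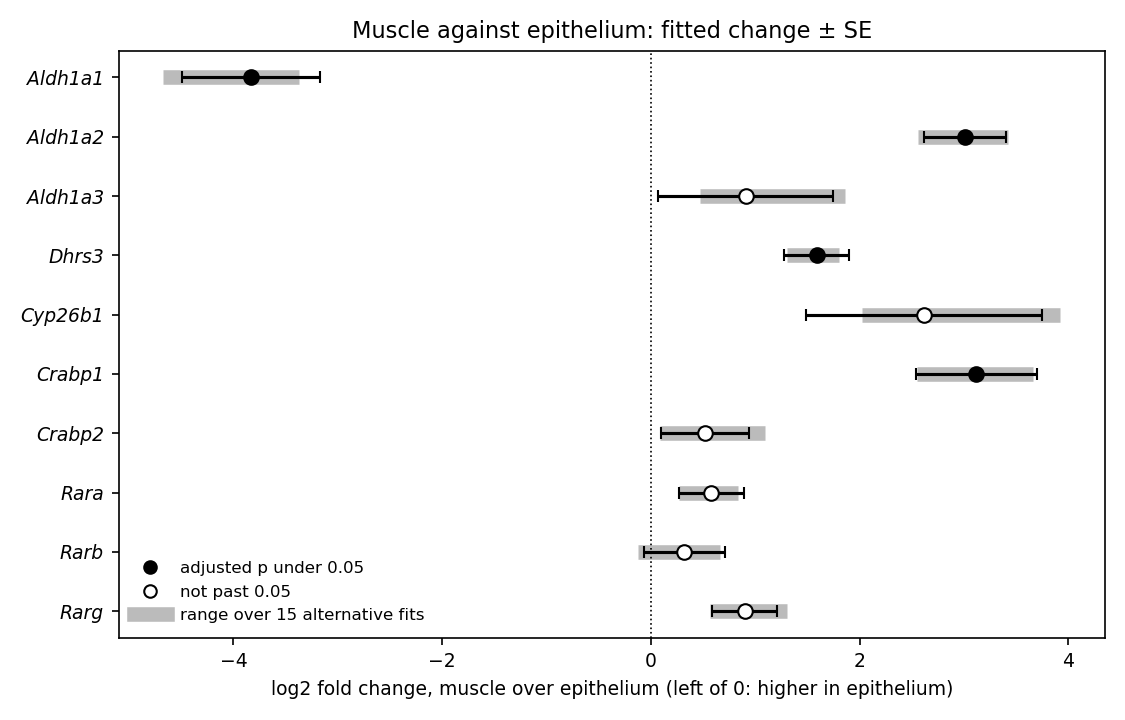
Fitted log2 fold change of each gene, muscle over epithelium, with its SE, filled where the edgeR adjusted p was under 0.05, and in grey the range over 15 alternative fits. Aldh1a1 lies left of 0 at -3.83, and Aldh1a2, Dhrs3 and Crabp1 lie right of it over their whole ranges. So do Aldh1a3, Cyp26b1, Crabp2, Rara and Rarg, which are not filled, while the range of Rarb spans 0.

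Levels of different genes were compared per kilobase of principal transcript. In muscle Crabp1 stood first with 420 ± 30.5 CPM per kb (SD, n = 3), above every other gene in each library. Crabp2 (85.9 ± 17.8), Rarb (78.2 ± 41.1) and Dhrs3 (60.2 ± 13.5) followed and overlapped one another. Aldh1a2 (27.8 ± 13.4), Rara (21.6 ± 7.29) and Rarg (19.9 ± 5.79) came next, again overlapping. Aldh1a3 (2.1 ± 1.26) and Cyp26b1 (1.75 ± 1.16) were lower, and Aldh1a1 (0.589 ± 0.463) was last by its mean. In epithelium Rarb (62.6 ± 11.8), Crabp2 (59.9 ± 36.1) and Crabp1 (48.4 ± 35.0) had the highest means and overlapped. Dhrs3 had 20 ± 6.08, Rara 14.5 ± 2.58 and Rarg 10.6 ± 3.05 CPM per kb, and Aldh1a1 had 8.32 ± 1.59. Aldh1a2 (3.48 ± 1.01), Aldh1a3 (1.12 ± 0.945) and Cyp26b1 (0.288 ± 0.249) were lowest. With all exons as the length Rarb fell behind Dhrs3 in muscle and behind Crabp1 and Crabp2 in epithelium. The place of Rarb in both orders is uncertain, since reads from its overlap with Top2b cannot be assigned.

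The promoter of Rarb carries a retinoic acid response element, and it is shown because the levels of Rarb above stand beside it. Promoter windows from RefSeq (GRCm38.p6, 250 bases before to 50 after each start) were given for 8 of the 10 genes, in 15 windows. The half-site, read as AGGTCA or GGGTCA or AGTTCA or GGTTCA, was searched on both strands, singly and as direct repeats spaced by 1, 2 or 5 bases. The window of Rarb held the sole direct repeat found among these genes, spaced by 5 bases and lying 53 to 37 bases before the RefSeq start. The 30 bases around it, at chr14:16575507-16575536 on the minus strand, have the repeat in capitals.

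Rarb: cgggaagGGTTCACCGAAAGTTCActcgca

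Of 32851 mouse promoter windows of this length 32 (0.0974%) held such a repeat spaced by 5 bases, 88 (0.268%) one spaced by 2 and 73 (0.222%) one spaced by 1. A single half-site, which each repeat also contains, was in 43.7% of all windows, so its presence in windows of Rara, Rarg and Aldh1a1 is common. A match is a description of the letters and says nothing of binding in these cells.

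The 100 bases before the first start that RefSeq lists are shown for the called genes, 3 higher in muscle and Aldh1a1 higher in epithelium. CG pairs are in capitals, and all 4 are on the plus strand. Aldh1a2 is at chr9:71215689-71215788, Dhrs3 at chr4:144892727-144892826, Crabp1 at chr9:54764648-54764747 and Aldh1a1 at chr19:20492483-20492582.

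Aldh1a2: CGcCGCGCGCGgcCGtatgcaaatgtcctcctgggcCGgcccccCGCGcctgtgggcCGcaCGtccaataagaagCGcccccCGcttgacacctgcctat

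Dhrs3: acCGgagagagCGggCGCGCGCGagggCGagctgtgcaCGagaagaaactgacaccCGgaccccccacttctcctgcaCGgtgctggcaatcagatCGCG

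Crabp1: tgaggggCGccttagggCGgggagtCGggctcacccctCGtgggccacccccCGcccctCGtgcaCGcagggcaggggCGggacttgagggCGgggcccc

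Aldh1a1: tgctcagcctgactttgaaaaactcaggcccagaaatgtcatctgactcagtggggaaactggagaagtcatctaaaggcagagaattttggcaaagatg

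The stretches of Aldh1a2, Dhrs3 and Crabp1 hold 13, 12 and 9 CG pairs with 71%, 67% and 79% G or C. That of Aldh1a1 holds 0 with 45%. RefSeq lists other starts, and the count depends on the start: the 100 bases before the second Aldh1a1 start hold 1 CG pair with 49%, and those before 2 further Dhrs3 starts hold 5 and 6 with 48% and 47%. Which start was used in these cells was not measured.

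The steps around these genes were described from 4 lists, in which 69 of 75 genes could be tested. These lists, too, were chosen with earlier results of these data known. By the edgeR test muscle had more RNA of 12 of the 69 and epithelium of 4, beside 6.58% and 4.11% of all genes tested. The median log2 fold change of the 69 was 0.07. In all of these calls the fit within the later date and the ratio of the earlier date had the same sign. The retinoic acid responsive genes carried most of the calls, with 8 of 19 higher in muscle and 3 higher in epithelium. Of 8 retinoid transport genes 2 were higher in muscle. Retinoid metabolism had 26 tested genes, with 2 calls toward muscle and 1 toward epithelium. Of 16 receptor partners and coregulators none was called by edgeR, with 1 at an unadjusted p under 0.05.

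Among the transport genes, Stra6 was higher in muscle. It encodes the membrane receptor for retinol on its carrier protein and had 162, 35.4 and 101 CPM in muscle and 18.5, 9.09 and 17.7 in epithelium (log2 fold change 2.71 ± 0.53, SE, edgeR adjusted p = 0.0117). Every muscle library was above every epithelial one, with the lowest muscle value in replicate 2, and the gene passed in all 15 alternative fits. Rbp4, the carrier itself, had 1.75, 4.79 and 2.83 CPM in muscle and 6.49, 10.3 and 11.8 in epithelium and did not pass (-1.61 ± 0.61, edgeR adjusted p = 0.155). Fabp5, which can carry retinoic acid to another receptor, had 60.2, 54.3 and 60 CPM in muscle and 113, 27.9 and 72.9 in epithelium (-0.29 ± 0.43, edgeR adjusted p = 0.878). Its sign turned without epithelium replicate 1 (0.22).

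Among enzymes, Cyp1b1, a cytochrome P450 that can oxidise retinol and retinaldehyde, had 161, 111 and 136 CPM in muscle and 4.41, 17.2 and 3.23 in epithelium. The log2 fold change of 4.07 ± 0.62 (SE, edgeR adjusted p = 0.00363) became 5.07 without epithelium replicate 2, and it passed in all 15 alternative fits. Dhrs7, a member of the same enzyme superfamily as Dhrs3, was higher in muscle by 2.00 ± 0.41 (edgeR adjusted p = 0.0142), a call lost without epithelium replicate 3 (0.0767) and with library size only (0.0696). Rdh10, which makes the retinaldehyde that the Aldh1a enzymes use, had 27.1, 24.7 and 104 CPM in muscle and 11.8, 19.2 and 7.02 in epithelium. Their ranges were apart, yet most of the difference lay in muscle replicate 3. The log2 fold change was 2.04 ± 0.60 (edgeR adjusted p = 0.0664), and without that library it was 1.05 (edgeR adjusted p = 0.244). Rdh10 passed in 4 of the 15 alternative fits.

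The other Cyp26 genes were low. Cyp26a1 had 2.01, 27.4 and 9.02 CPM in muscle and 1.19, 3.21 and 1.58 in epithelium (2.69 ± 0.91, edgeR adjusted p = 0.107), and its high value was in muscle replicate 2, as for Cyp26b1. Cyp26a1 passed in 3 of the 15 alternative fits, among them the one without muscle replicate 1 (3.21, edgeR adjusted p = 0.0288), and without muscle replicate 2 it was 1.49. Cyp26c1 had at most 0.278 CPM in muscle and 0.864 in epithelium and was not tested. Of the retinoid X receptors that pair with Rara, Rarb and Rarg, Rxra had 43.3, 31.3 and 55.5 CPM in muscle and 48, 32.2 and 45.1 in epithelium (0.05 ± 0.28, edgeR adjusted p = 0.968), with a sign that turned in 7 of the 15 alternative fits. Rxrb had 31.1, 26.9 and 47.8 against 84.6, 63.9 and 47.9 CPM (-0.89 ± 0.31, edgeR adjusted p = 0.115). Rxrg had 21.9, 8.54 and 10.9 against 1.69, 8.89 and 0.939 CPM (1.86 ± 0.83, edgeR adjusted p = 0.241). Each of the latter pair passed in 3 of the 15 alternative fits, Rxrg among them without epithelium replicate 2 (3.29, edgeR adjusted p = 0.013).

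The responsive genes higher in muscle were mostly transcription factor genes that set position along the body axis. They were the Hox genes Hoxa3 (1.84 ± 0.28), Hoxb3 (1.43 ± 0.32), Hoxa4 (2.59 ± 0.53), Hoxb4 (1.33 ± 0.34) and Hoxb5 (3.29 ± 0.64), the Hox cofactor genes Meis1 (2.51 ± 0.31) and Meis2 (1.74 ± 0.33), and Rarres2, which encodes the secreted chemerin (4.68 ± 0.90), all as log2 fold change ± SE. Their edgeR adjusted p ran from 0.00132 for Meis1 to 0.039 for Hoxb4. Meis1, the most abundant of them in counts, had 865, 430 and 692 CPM in muscle and 119, 125 and 105 in epithelium. Rarres2 had 6.54, 15.6 and 15.6 CPM in muscle and 0.297, 1.07 and 0.15 in epithelium, the latter from 16, 16 and 4 counts. In epithelium replicate 2 the background averaged 1.25 CPM per receptor gene. Hoxa3, Meis1 and Meis2 passed in all 15 alternative fits. When 1 library was left out, Hoxb4 was no longer called in 5 of the 6 fits (edgeR adjusted p up to 0.202), the exception being that without epithelium replicate 2. Hoxb3 lost it in 4 (up to 0.155), without muscle replicate 1 or 3 and without epithelium replicate 1 or 3. Hoxa4 lost it in 3 (up to 0.0995), without muscle replicate 1 or 3 and without epithelium replicate 3. Hoxb5 lost it without epithelium replicate 2 (0.053) and stood at 4.24 without epithelium replicate 1. Rarres2 lost it without muscle replicate 3 (0.0548) and stood at 5.69 without epithelium replicate 2. Other settings also ended calls: library size only those of Hoxb3 (edgeR adjusted p = 0.0863) and Hoxb4 (0.165), DESeq2-type size factors that of Hoxb4 (0.0777), the later date alone that of Hoxb3 (0.0513), and limma-voom that of Rarres2 (adjusted p = 0.0553).

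The 3 responsive genes higher in epithelium were of other kinds. Gprc5a, an orphan receptor gene known for its induction by retinoic acid, had 87.8, 122 and 106 CPM in epithelium and 2.96, 3.84 and 4.83 in muscle, a log2 fold change of -4.76 ± 0.30 (SE, edgeR adjusted p = 9.61e-05). Nr2f2, a nuclear receptor gene, had 428, 256 and 439 CPM in epithelium and 77.8, 69 and 108 in muscle (-2.14 ± 0.31, edgeR adjusted p = 0.00273). Both passed in all 15 alternative fits. Rai14, whose product binds actin filaments, differed by -1.41 ± 0.30 (edgeR adjusted p = 0.0166) and lost its call without muscle replicate 3 (0.0794) or epithelium replicate 1 (0.0545). Responsive genes were thus called in both directions, as were the Aldh1a enzymes.

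**Figure D5:**
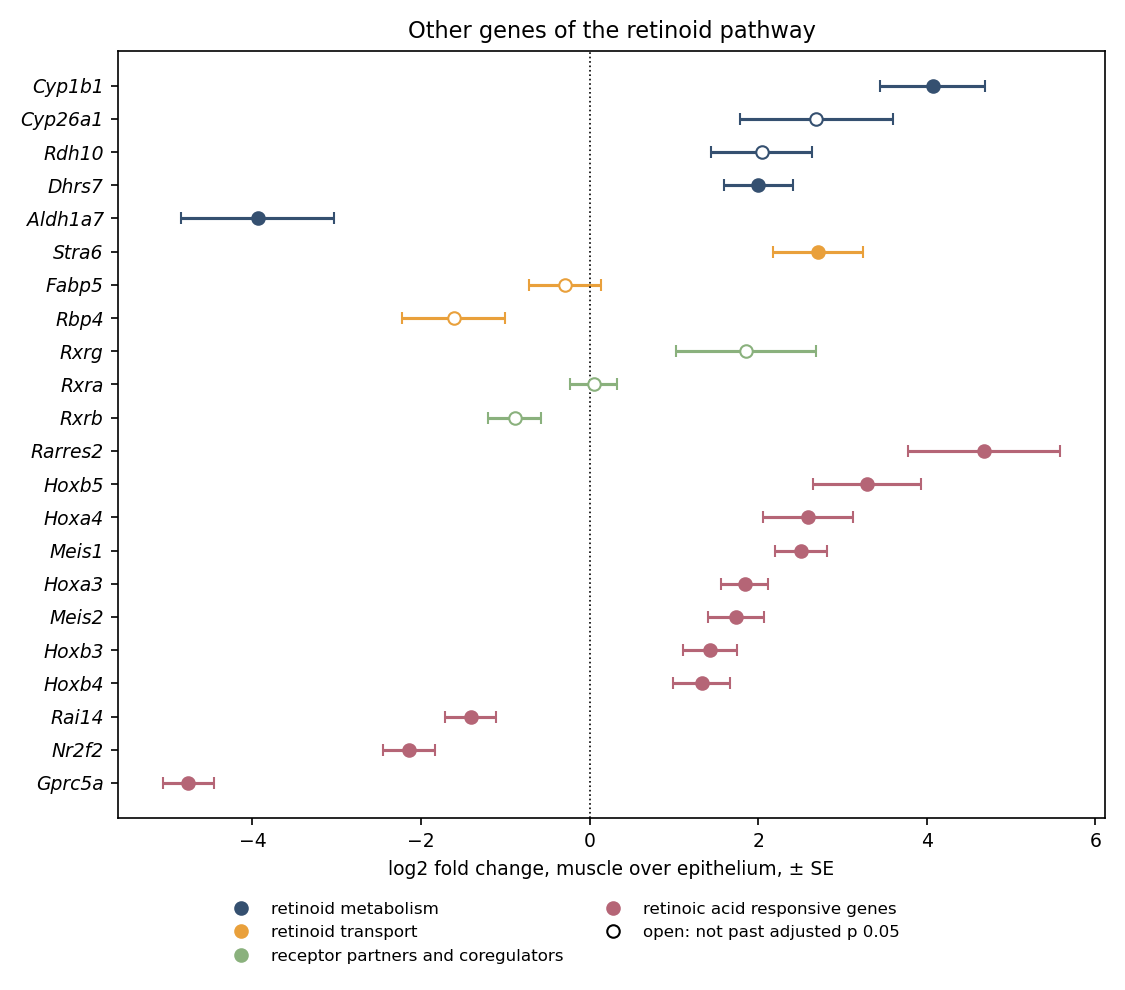
Log2 fold change of other named genes of the pathway, muscle over epithelium, with its SE, coloured by list and filled where the edgeR adjusted p was under 0.05. Stra6, Cyp1b1, Dhrs7 and 8 responsive genes are filled right of 0, and Aldh1a7, Gprc5a, Nr2f2 and Rai14 left of it.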

How the data were processed

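RNA of sorted muscle and epithelium was amplified with SMART-Seq v4 and made into libraries with Nextera XT, per the labels' protocols, which in standard use keep no strand and no molecular identifiers, so counts include PCR copies. Deposited values are raw counts, whole numbers for each of 23478 gene symbols. The submitters' processing notes name Trim Galore, Bowtie2, Cufflinks, DESeq and the build mm10, without roles; the counting program and annotation are not given in the sources used here. Counts from 1 to 19 were even in 73.8% to 79.6% of cases per library and counts of 100 or more in 49.4% to 50.6%. Counting each mate of a pair would give even numbers. Whether this was done was not tested, and if so fewer fragments stand behind small counts, such as those of Aldh1a1 in muscle and Cyp26b1 in epithelium.

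Groups came from the sample titles. The edgeR package (4.0.16, R 4.3.3) served for filtering (filterByExpr), TMM scaling and a robust two-sided quasi-likelihood test over all 6 libraries, without covariates, with Benjamini-Hochberg adjustment over 19375 genes and a threshold of 0.05. Standard errors were derived from the test statistic. An exact permutation test of 3 against 3 cannot go below p = 0.1 and was not used. The script was tested on simulated data. CPM was computed from the deposited counts with TMM-scaled totals. Alternatives were other scalings, no filter, DESeq2 1.42.0, limma 3.58.1 (voom), the replicate block, the header date as a term or the later date alone, the background counts as a covariate, and each library left out. Lengths from all exons, and the mesothelial sum without Krt7, were added after seeing the data. Exon lengths and positions came from GENCODE M21 (GRCm38), and promoters from RefSeq.

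The 10 genes and all lists were chosen with earlier results of these data known. Named are the 10, the other pathway genes past the threshold, and Rdh10, Cyp26a1, Cyp26c1, Rbp4, Stra6, Fabp5, Rxra, Rxrb and Rxrg whatever their values. 1 further gene that the rule names is counted in its list and is not reported here. Of 9 marker lists, the calls were 10 of 10 smooth muscle genes and 2 of 9 cartilage genes higher in muscle. Higher in epithelium were 10 of 10 epithelial, 1 of 7 mesothelial and 3 of 6 tested oesophageal genes. Endothelial, neural and glial, immune and erythroid markers had 0 called by edgeR, with 1, 2, 0 and 0 at an unadjusted p under 0.05. These 4 lists and the oesophageal one summed to 46.8 to 78, 35.4 to 71.9, 2.96 to 52.2, 8.51 to 36.8 and 1.95 to 13.5 CPM in muscle. In epithelium the same sums, in that order, were 13.5 to 67.5, 36.3 to 83.8, 3.81 to 46.4, 6.34 to 24.2 and 135 to 240 CPM, with the erythroid genes Hba-a1, Hbb-bt and Hbb-bs at 0 in all 6 libraries.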

Additional observations from a re-analysis of the deposited data

How the results depend on the processing

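The 4 called genes of the pathway were called in all 15 alternatives, except Dhrs3 without epithelium replicate 3 and Crabp1 with the background covariate, and 3 to 5 of the 10 were called in each fit. Over all genes, 2071 passed with edgeR as reported, 3549 with the Wald test of DESeq2 and 3178 with the header date as a term. Leaving out 1 library gave 1169 (without epithelium replicate 3) to 2573 (without muscle replicate 2), and 1323 without muscle replicate 1. The replicate block gave 2418. Deviations from the group means correlated at 0.57 and 0.66 for the libraries numbered 1 and 2 and at -0.42 for those numbered 3. These values cannot decide whether the numbers mark a pairing. Deviations within a group of 3 are tied to one another, and the libraries also differ in background. With the block the calls of Aldh1a7, Hoxa4 and Hoxb4 were lost (edgeR adjusted p = 0.0664, 0.0547 and 0.0511), and no call among the 10 genes changed. With library size only, 42.0% of calls were higher in muscle against 61.5% with TMM, and the median log2 fold change of all genes was -0.33 against -0.10. Signs turned for Rarb (-0.12 without muscle replicate 1), Fabp5 (-0.74 to 0.22 with 1 library left out) and Rxra (-0.17 to 0.25 with 1 library left out). The latter was -0.07 with DESeq2-type size factors and with DESeq2, -0.22 with library size only, -0.06 with the background covariate, and below 0 without muscle replicate 3 (-0.16), epithelium replicate 2 (-0.17) or epithelium replicate 3 (-0.02). Over all single-gene alternatives 434 kept direction and side of the threshold, 35 lost a call, 17 gained one and 9 turned sign. The causes were not tested. Small counts limit the precision of Aldh1a1 in muscle (10 to 51 counts) and, in epithelium, of Cyp26b1 (6 to 38) and Rarres2 (4 to 16).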
